A study of Xenopus laevis with 11 samples.

Results

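Peaks that lie on scaffolds, the assembled stretches of the Xenopus laevis genome that had not been joined to a chromosome, were described for H3K4me3 and p300 in early gastrula embryos. The members were chosen by name: every interval of the series-wide H3K4me3 or p300 list whose sequence name is a scaffold and not one of the 18 L and S chromosomes. They were 4750 of 49958 intervals, made up of 2757 of 24948 H3K4me3 peaks and 1993 of 25010 p300 peaks. The material was whole embryos of 1 stage, NF stage 10.5, untreated apart from fixation in formaldehyde. The labels name no strain, allele or other agent. Each chromatin preparation pooled 35 to 90 embryos, so every list mixes all cell types of the gastrula. The study precipitated 5 targets with 2 replicates each and kept 1 input, and the peak lists of both H3K4me3 and both p300 replicates were used here. The series-wide lists hold the stretches that both replicates of a target cover, and the labels do not say whether replicates came from separate clutches, so their spread may be technical.

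H3K4me3 is the trimethylation of lysine 4 on histone H3, a mark concentrated around active and poised promoters. p300 is an acetyltransferase that is brought in by transcription factors to enhancers and promoters and acetylates histones there. X. laevis is an allotetraploid whose chromosomes form an L and an S set descended from different ancestral species. A scaffold carries no such assignment, and repeats or closely similar copies are a common reason for sequence to remain unplaced in an assembly. Gene annotation for these scaffolds was not used here, so peaks are named by scaffold and position, 1-based, in the build of the files, which no source used here names.

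The scaffold peaks fell on scaffolds of very different kinds. A peak in at least 1 of the 6 lists was found on 3536 scaffolds. A scaffold's span, a lower bound of its length, was set at the final base of its last peak over all lists. Span fell with the number in the scaffold's name, with a Spearman correlation of -0.88 over the 3536 scaffolds. The scaffolds were therefore described in 3 classes, set after the data had been seen. The low-numbered class, Scaffold19 to Scaffold200, held 163 scaffolds with a median span of 306127 bp and 143.0 Mb in all. The middle class, up to Scaffold1000, held 168 scaffolds and 2.14 Mb. The high-numbered class, above Scaffold1000, held 3205 scaffolds with a median span of 368 bp, a longest span of 3566 bp and 1.57 Mb in all. Scaffolds are called long or short by this span, which rests on the peaks, since their lengths were not at hand.

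Both long and very short scaffolds carried many peaks. The low-numbered scaffolds held 1581 series-wide H3K4me3 peaks on 116 scaffolds and 1349 p300 peaks on 120. The high-numbered scaffolds held 1119 H3K4me3 peaks on 1113 scaffolds and 562 p300 peaks on 548, so nearly every one of these short pieces carried a single peak. The middle class held 57 H3K4me3 and 82 p300 peaks. Over all scaffolds, 1170 of the 1279 with an H3K4me3 peak had exactly 1 (91.5%), as did 601 of the 714 with a p300 peak (84.2%). At the other extreme, 44 scaffolds with 10 or more H3K4me3 peaks held 1306 of them, and 39 scaffolds with 10 or more p300 peaks held 1102.

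Scaffolds took 11.1% of the series-wide H3K4me3 list (Wilson 95% interval 10.7 to 11.4%) and 7.97% of the p300 list (7.64 to 8.31%). These intervals count each peak as independent and hold counting error alone. In the H3K4me3 replicates the share was 11.9% (3895 of 32821 peaks) and 11.4% (3113 of 27267). In the p300 replicates it was 10.8% (3780 of 35127) and 6.48% (3800 of 58614). The H3K4me3 replicates therefore lay close together, with a difference of 0.451 percentage points (Newcombe 95% interval -0.0650 to 0.964), while the p300 replicates differed by 4.28 points (3.90 to 4.66). With 1 list per replicate this compares 2 libraries.

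Most of the gap between the p300 replicates came from the high-numbered scaffolds. They held 1578 replicate 1 peaks, or 4.49% of that list, and 876 replicate 2 peaks, or 1.49%, a difference of 2.998 points (2.76 to 3.24). On low-numbered scaffolds the order of the counts was the other way, 2023 peaks in replicate 1 and 2795 in replicate 2, as in the whole lists, and the shares were 5.76% and 4.77%. For H3K4me3 the high-numbered scaffolds held 4.86% of replicate 1 and 4.66% of replicate 2. Read depth and the peak threshold of each library are unknown, and their part in this gap was not tested.

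**Figure D1:**
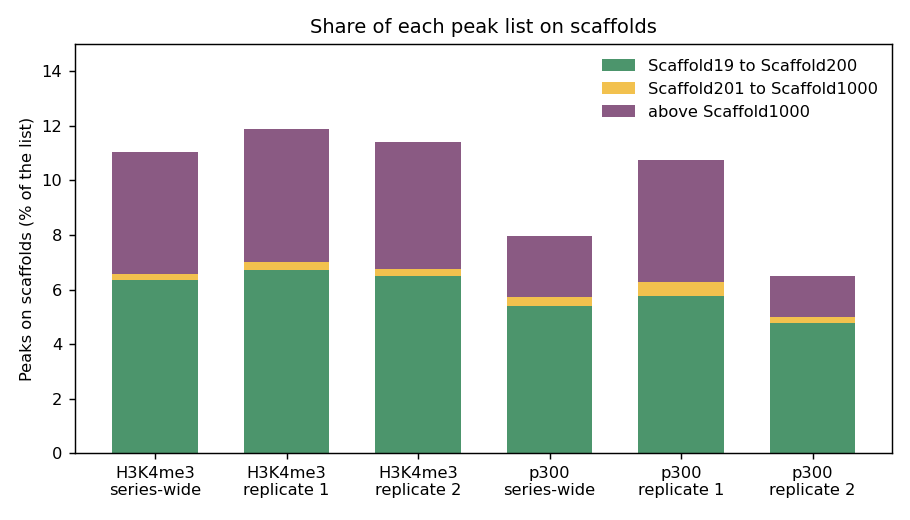
Share of each of the 6 peak lists that lies on scaffolds, in percent of the list, with bars divided by the number in the scaffold's name. The H3K4me3 bars stand at 11.1%, 11.9% and 11.4%, and the p300 bars at 7.97%, 10.8% and 6.48%, with the high-numbered piece of p300 replicate 1 at 4.49% against 1.49% in replicate 2.

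The width of H3K4me3 peaks differed between the scaffold classes more than that of p300 peaks. The median H3K4me3 peak on scaffolds was 608 bp wide (quartiles 284 and 1189 bp) in the series-wide list, 556 bp in replicate 1 and 562 bp in replicate 2. On the chromosomes the series-wide median was 1117 bp, with single chromosomes between 1042 bp on 6L and 1182 bp on 8S. Low-numbered scaffolds had a median of 1031 bp, just under that range, and high-numbered scaffolds one of 315 bp (quartiles 219 and 539 bp). The median p300 peak was 217 bp wide on all scaffolds, 220 bp on low-numbered ones, 206 bp on high-numbered ones and 215 bp on the chromosomes. A peak cannot be wider than its scaffold. The median span of high-numbered scaffolds, which rests on the peaks, was 368 bp, above the median p300 width and below the chromosomal median for H3K4me3. The part of scaffold length in these widths was not tested.

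Many of the H3K4me3 peaks on short scaffolds began at the very first base of the sequence. This was so for 667 of the 2757 scaffold peaks (24.2%), for 659 of the 1119 on high-numbered scaffolds (58.9%), and for 400 of the 530 on scaffolds numbered above 50000 (75.5%). On low-numbered scaffolds it was 0 of 1581, which allows a share of up to 0.190%, and on the chromosomes 0 of 22191. For p300 it was 63 of 1993 (3.16%), and 61 of 562 on high-numbered scaffolds (10.9%). Peaks of both H3K4me3 replicates with the same first and last base numbered 359 on scaffolds, each of them on a high-numbered scaffold and 358 of them starting at base 1. The chromosomes, with 21515 recurring replicate 1 peaks, held 1 such pair. For p300 the same count was 12 on scaffolds and 5 on chromosomes. The boundaries of H3K4me3 peaks on the shortest pieces thus often coincided with the first base of the sequence.

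The next question was how often a replicate's peaks recurred, that is overlapped a peak of the other replicate by at least 1 bp. For H3K4me3 replicate 1, 69.4% of the scaffold peaks recurred in replicate 2, beside 73.8% in the whole list and 74.4% on the chromosomes. For H3K4me3 replicate 2 it was 88.3%, beside 91.2% in the whole list and 91.6% on the chromosomes. On low-numbered and high-numbered scaffolds the shares were 69.6% and 69.9% for replicate 1, and 88.7% and 88.0% for replicate 2. The difference of high-numbered from low-numbered scaffolds was 0.315 points for replicate 1 (Newcombe 95% interval -2.66 to 3.26) and -0.651 points for replicate 2 (-3.01 to 1.63). The 2 classes are not alike in this measure, since peaks on a piece with a span near 368 bp have little room to lie apart. Both replicates had H3K4me3 on 1113 high-numbered scaffolds, beside 1115 and 1118 recurring peaks. Recurrence there is thus close to a count of pieces called in both replicates and says little about position. Within the high-numbered class replicate 2 was uneven, with 96.4% (94.3 to 97.7%) from Scaffold10001 to Scaffold50000 and 80.7% (77.5 to 83.5%) above Scaffold50000. Replicate 1 had 70.3% and 71.8% in the same steps. The recurring peaks numbered 456 and 530 in either replicate, out of 649 and 738 in replicate 1 and 473 and 657 in replicate 2. In the middle class 57 of 100 replicate 1 peaks and 85.1% of the 67 replicate 2 peaks recurred.

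Recurrence of p300 differed between the classes, in shares that also depend on how many peaks each replicate has there. As for H3K4me3, peaks on a high-numbered scaffold have little room to lie apart. For p300 replicate 1, 52.3% of the scaffold peaks recurred, beside 70.8% in the whole list and 73.1% on the chromosomes. It was 66.1% on low-numbered and 35.6% on high-numbered scaffolds, a difference from the chromosomes of -37.5 points (Newcombe 95% interval -39.9 to -35.1). For p300 replicate 2 the order turned round: 51.0% of the scaffold peaks recurred, beside 41.7% in the whole list and 41.0% on the chromosomes, with 46.8% on low-numbered and 63.1% on high-numbered scaffolds. An overlap counts in both directions, so the numbers of recurring peaks are close between the replicates by construction, apart from peaks that meet several. The list sizes were not close. On high-numbered scaffolds 561 of 1578 replicate 1 peaks and 553 of 876 replicate 2 peaks recurred. On the chromosomes it was 22900 of 31347 and 22475 of 54814. As a matter of arithmetic, shares of such close counts take the opposite order to the numbers of peaks they are divided by. Why those numbers differ between the replicates was not tested. The recurring share for all scaffolds lay below each of the 18 chromosomes for p300 replicate 1 and for both H3K4me3 replicates, and above each of them for p300 replicate 2. Of the 3205 high-numbered scaffolds, 1593 had peaks in 1 of the 4 replicate lists alone, and for 823 of these it was p300 replicate 1. The same counts were 18 and 5 of 163 low-numbered, 74 and 38 of 168 middle, and 1685 and 866 of all 3536 scaffolds. Where a scaffold carries a single peak that does not recur, it is left in 1 list by construction.

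The comparison of the targets asked whether p300 and H3K4me3 met as often on scaffolds as on chromosomes. In the series-wide lists 565 of 1993 scaffold p300 peaks overlapped H3K4me3, or 28.3% (26.4 to 30.4%), beside 30.0% of the whole list and 30.1% on the chromosomes. The difference of -1.75 points had a Newcombe 95% interval of -3.78 to 0.353 that includes 0. This average hid unlike classes. Low-numbered scaffolds had 32.2% (435 of 1349), 2.15 points above the chromosomes (-0.366 to 4.76). High-numbered scaffolds had 20.1% (113 of 562), a difference of -9.99 points (-13.2 to -6.43).

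The replicates gave different pictures for this share. In replicate 1, 32.4% of scaffold p300 peaks overlapped H3K4me3, against 38.6% on the chromosomes and 37.9% of the whole list. In replicate 2 it was 21.7%, against 18.8% on the chromosomes and 19.0% of the whole list. Scaffolds minus chromosomes thus came to -6.17 points in replicate 1 and 2.91 points in replicate 2, a mean difference of -1.63 ± 6.42 points (SD, n = 2; two-sided exact permutation p = 1). Low-numbered scaffolds lay higher in both, at 42.5% and 22.9%, by 4.01 ± 0.210 points (SD of the paired differences, n = 2). The exact permutation test gave p = 0.667, and the exact sign flip over the 2 pairs gave p = 0.5, the smallest 2 pairs allow. High-numbered scaffolds had 19.8% and 18.4%, -18.8 points from the chromosomes in replicate 1 and -0.399 points in replicate 2. The smallest p that 2 values against 2 allow in this two-sided exact permutation test is 0.333. That test leaves out the pairing by replicate, so its p does not measure the spread that the SD of the paired differences gives.

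Seen from the other side, H3K4me3 peaks on scaffolds held p300 less often than those on chromosomes in every list. In the series-wide lists it was 480 of 2757, or 17.4% (16.0 to 18.9%), beside 24.4% of the whole list and 25.2% on the chromosomes, a difference of -7.81 points (-9.30 to -6.24). In replicate 1 it was 25.6% on scaffolds, 32.3% on the chromosomes and 31.5% in the whole list. In replicate 2 it was 22.5%, 34.2% and 32.8%. The mean difference was -9.21 ± 3.56 points (SD of the paired differences, n = 2). The two-sided exact permutation test, which leaves out the pairing, gave p = 0.333, the smallest that test allows here. Among single chromosomes the lowest series-wide share was 21.4% on 9_10S and the highest 29.6% on 7S, so the scaffold share lay below all 18.

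The deficit was larger on high-numbered than on low-numbered scaffolds. Low-numbered scaffolds had 22.7% of H3K4me3 peaks with p300 (359 of 1581), a difference from the chromosomes of -2.51 points (-4.59 to -0.311). This share lay within the range of single chromosomes, above 3 of the 18. The difference was -1.84 points in replicate 1 (-3.81 to 0.184), where the share lay above 2 of the 18. In replicate 2 it was -4.45 points (-6.62 to -2.20), with the share below all 18. High-numbered scaffolds had 9.83% (110 of 1119), a difference of -15.4 points (-17.1 to -13.4). In finer steps of the scaffold number the series-wide share was 22.2%, 24.3%, 22.0%, 19.3%, 18.05%, 13.8% and, above Scaffold50000, 4.34%. Replicate 1 had 30.5% on low-numbered and 18.2% on high-numbered scaffolds, and replicate 2 had 29.7% and 12.3%, so the high-numbered scaffolds were lower in both. The replicates did not decline evenly: replicate 1 had 38 of 100 peaks with p300 from Scaffold201 to Scaffold1000 and 32.2% from Scaffold1001 to Scaffold10000, near the 32.3% of the chromosomes, before 21.4% and 11.4% in the last steps. Replicate 2 had 22.4%, 24.3%, 18.8% and 5.02% in the same steps.

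**Figure D2:**
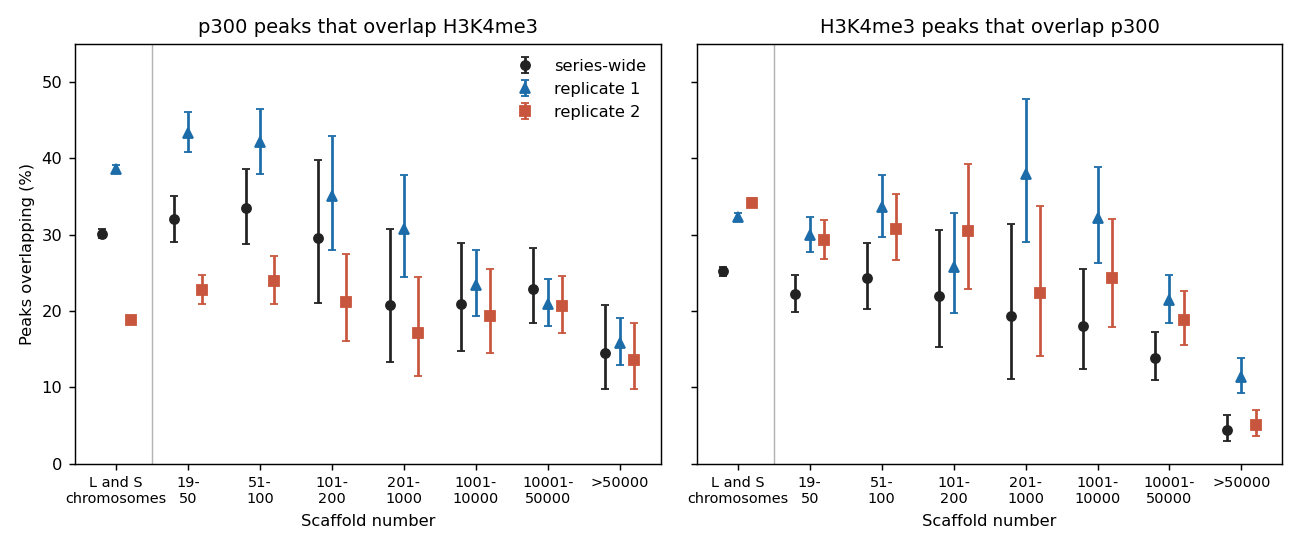
Percent of p300 peaks that overlap H3K4me3 (left) and of H3K4me3 peaks that overlap p300 (right), on the chromosomes and by the number in the scaffold's name; points are the series-wide list and each replicate, bars are Wilson 95% intervals for counting error only. On the right the series-wide points go from 22.2% on Scaffold19 to Scaffold50 down to 4.34% above Scaffold50000, beside 25.2% on the chromosomes.

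Peak width moved with this share. H3K4me3 peaks were put into the quartiles of width of the whole series-wide list, which end at 628, 1075.5 and 1647 bp. In the narrowest quartile 8.13% of the 923 high-numbered peaks held p300, against 16.2% of low-numbered and 17.4% of chromosomal ones. In the next quartile the shares were 15.5% of 174, 16.5% and 17.6%. The third quartile held 19 high-numbered peaks, 8 of them with p300, and the widest held 3, none with p300. Low-numbered scaffolds followed the chromosomes in each quartile, with 21.7% and 39.0% in the upper ones against 22.4% and 41.9%.

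Most short scaffolds with a series-wide peak carried a single target. The 3205 high-numbered scaffolds are those with a peak in at least 1 list, so pieces without any peak are not counted. Of these, 1001 carried series-wide H3K4me3 and no p300, 436 carried p300 and no H3K4me3, 112 carried both and 1656 carried neither. Of the 562 p300 peaks there, 447 lay on a scaffold with no series-wide H3K4me3, 113 overlapped it and 2 lay apart from it on the same scaffold, at most 48 bp away. In the replicate lists, 877 high-numbered scaffolds had H3K4me3 in both replicates and p300 in neither, and 386 had p300 in both and H3K4me3 in neither. Most peaks met no peak of the other target on the chromosomes either. There 30.1% of p300 peaks overlapped H3K4me3 and 25.2% of H3K4me3 peaks overlapped p300, beside 20.1% and 9.83% on high-numbered scaffolds. Short spans also leave little room for peaks to lie apart, and whether the targets avoid each other was not tested. Where the neighbouring sequence of a piece lies is not known, so a p300 peak here without H3K4me3 cannot be called distal.

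On long scaffolds this distance could be read. Of the 914 low-numbered p300 peaks outside H3K4me3, 887 shared a scaffold with an H3K4me3 peak, and the median gap to the nearest was 16.2 kb (quartiles 4.72 and 42.7 kb). Within 10 kb lay 37.6% of the 914 (34.6 to 40.8%) and within 1 kb 9.19%. On the chromosomes the median gap was 17.7 kb, with 36.6% within 10 kb and 7.69% within 1 kb. In the series-wide lists, p300 on long scaffolds thus lay at distances from H3K4me3 much like those on chromosomes, among peaks with a measurable gap. A gap cannot pass the end of a scaffold, and 27 p300 peaks had no H3K4me3 on their scaffold, against 0 on the chromosomes. Low-numbered scaffolds also had 11.1 H3K4me3 peaks per Mb of span, and the chromosomes 8.85.

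The long scaffolds held very different numbers of peaks. The 43 scaffolds with a span of 1 Mb or more ranged from 0.818 H3K4me3 peaks per Mb of span on Scaffold48 to 26.2 on Scaffold22, with a median of 8.73. The 18 chromosomes ranged from 7.13 on 5S to 11.5 on 9_10L. Of the 43 scaffolds, 15 lay below every chromosome, 15 above and 13 within. For p300 the scaffolds ranged from 0 on Scaffold56 to 19.7 on Scaffold41 (median 9.69) and the chromosomes from 7.16 on 1S to 12.3 on 8L, with 16 scaffolds below, 13 above and 14 within. In p300 replicate 2 the balance was different, with 23 below, 7 above and 13 within, against 17, 14 and 12 in replicate 1. Pieces of the chromosomes as long as Scaffold31, 2.90 Mb, also differed widely, with 0 to 122 H3K4me3 and 1 to 138 p300 peaks each, so a wide spread was not particular to scaffolds.

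Scaffolds dense in one target tended to be dense in the other. Over the 43 scaffolds the Spearman correlation of H3K4me3 with p300 density was 0.57 in the series-wide lists, 0.66 in replicate 1 and 0.54 in replicate 2. Between replicates it was 0.95 for H3K4me3 and 0.84 for p300. These points share their libraries and the same span in both densities, and they are given as a description. Scaffold56, of 1.15 Mb, stood at the low end, with 1 H3K4me3 peak in each replicate and 2 and 4 p300 peaks, none of them series-wide. Scaffold41, of 1.68 Mb, had 34 and 30 H3K4me3 peaks and 39 and 58 p300 peaks.

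**Figure D3:**
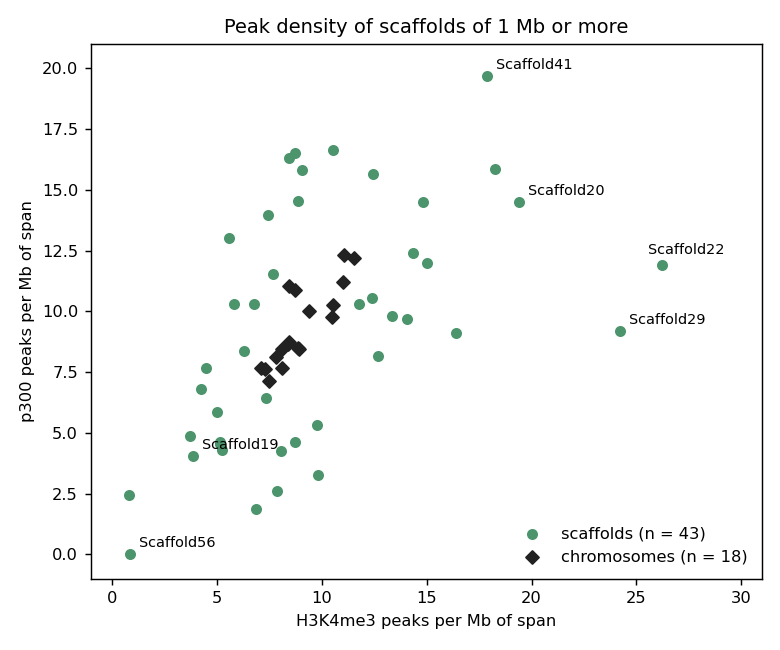
Series-wide H3K4me3 (x axis) and p300 (y axis) peaks per Mb of span on the 43 scaffolds of 1 Mb or more (circles) and the 18 chromosomes (diamonds). The chromosomes lie between 7.13 and 11.5 H3K4me3 and between 7.16 and 12.3 p300 peaks per Mb, and the scaffolds spread to both sides of them on both axes.

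The 10 scaffolds with most peaks held 1293 of the 4750 scaffold peaks (27.2%). Scaffold20, with a span of 8.14 Mb, held 158 series-wide H3K4me3 peaks (204 in replicate 1 and 170 in replicate 2) and 118 p300 peaks (197 and 199). Scaffold22, with 6.29 Mb, held 165 H3K4me3 peaks (225 and 180) and 75 p300 peaks (138 and 156). The chromosomes were cut into adjoining stretches of the same length as each scaffold. None of 389 stretches held as many H3K4me3 peaks as Scaffold22, the fullest having 162 and the median 51, whereas 85 held as many p300 peaks. Scaffold22 had the most series-wide H3K4me3 peaks of any scaffold and was named for its peaks, so its rank is a description and no test. The margin, 165 against 162, was narrow and may depend on where the stretches were cut.

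Scaffold29, with 3.59 Mb, was likewise rich in H3K4me3, with 87 series-wide peaks (119 and 95) against 33 p300 peaks (63 and 75). Of 690 chromosomal stretches of its length 6 held as many H3K4me3 peaks and 305 as many p300 peaks. Scaffold19, the longest at 10.6 Mb, was sparse, with 41 H3K4me3 peaks (74 and 47) and 43 p300 peaks (75 and 120), and 227 of 228 stretches held as many H3K4me3 peaks or more. Scaffold21 had 80 H3K4me3 (99 and 88) and 68 p300 peaks (94 and 143), and Scaffold24 had 58 (84 and 67) and 73 (97 and 121). The remaining 4, Scaffold31, Scaffold36, Scaffold23 and Scaffold25, held 27 to 43 H3K4me3 and 33 to 42 p300 peaks each.

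**Figure D4:**
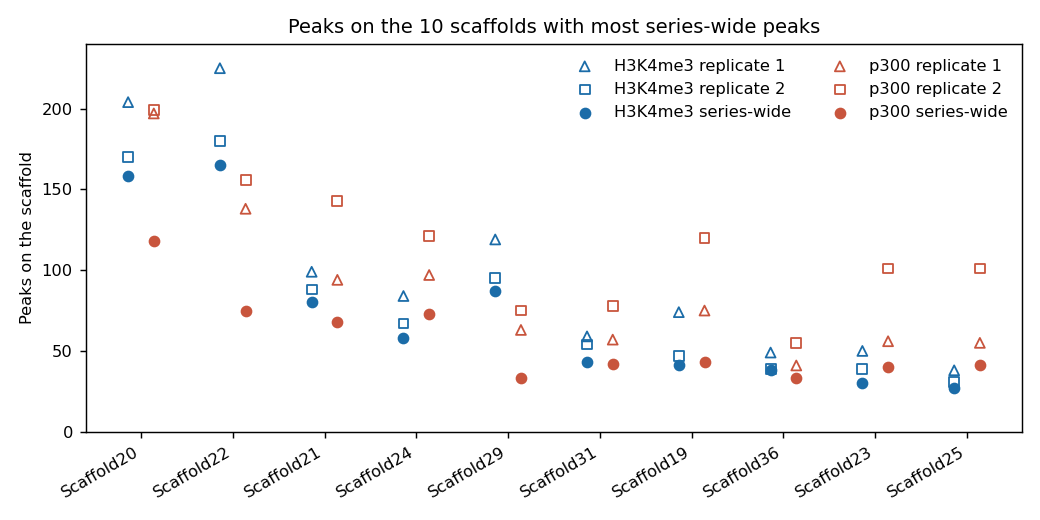
Number of H3K4me3 (blue) and p300 (red) peaks on the 10 scaffolds with most series-wide peaks, in each replicate (open) and series-wide (filled). Scaffold22 and Scaffold29 have more H3K4me3 than p300 peaks in both replicates, 225 against 138 and 180 against 156 on Scaffold22.

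The peaks of Scaffold22 were grouped along it. Its widest H3K4me3 peak, 9207 bp at Scaffold22:1877116-1886322, was the second widest of the whole series-wide list. It was called as 1 peak of 9247 bp in replicate 1 and of 9207 bp in replicate 2. No series-wide p300 peak lay in it, with 4 in replicate 1 and 0 in replicate 2. Counted by distance from its centre, the 0.5 Mb after it held 40 series-wide H3K4me3 peaks (48 and 41 in the replicates) and 9 p300 peaks (26 and 19). The stretch from 0.5 to 1 Mb before the centre held 33 H3K4me3 (42 and 35) and 23 p300 peaks (32 and 32). That from 3 to 3.5 Mb after it held 1 of each, with 2 and 4 H3K4me3 and 2 and 3 p300 peaks in the replicates.

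The other widest scaffold H3K4me3 peaks were on Scaffold29 (8889 bp at 2909534 to 2918422), Scaffold324 (7515 bp at 15674 to 23188), Scaffold67 (6807 bp at 721980 to 728786) and Scaffold36 (6488 bp at 1979051 to 1985538). The first 3 of these held 2, 2 and 3 series-wide p300 peaks. The one on Scaffold36 held none in any list. The widest scaffold p300 peak, 1575 bp at Scaffold73:18437-20011, was called at 1704 and 1575 bp in the replicates and met no H3K4me3 peak in any list. Those on Scaffold40 (1358 bp at 1348091 to 1349448), Scaffold72 (1178 bp at 692394 to 693571) and Scaffold20 (1110 bp at 2520213 to 2521322) each overlapped 1 H3K4me3 peak in every list. The one on Scaffold36 (944 bp at 643442 to 644385) overlapped none.

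Dense windows differed in which target filled them. The densest 100 kb for p300, Scaffold20:4198598-4298597, held 27 series-wide p300 peaks (30 and 32 in the replicates) and 7 H3K4me3 peaks (16 and 7). It overlaps the densest for H3K4me3, Scaffold20:4169210-4269209, with 13 H3K4me3 (20 and 13) and 23 p300 peaks (27 and 25). A window on Scaffold22 at 1986604 to 2086603 held 13 H3K4me3 peaks in each list but 1 series-wide p300 peak (6 and 4 in the replicates). The reverse was seen on Scaffold24 at 372243 to 472242, with 18 p300 peaks (18 and 16) and 2 H3K4me3 peaks (5 and 2). On Scaffold40 at 1541568 to 1641567 there were 15 p300 and 4 H3K4me3 peaks in every list, and on Scaffold29 at 2638560 to 2738559 there were 11 H3K4me3 (12 and 9) and 6 p300 peaks (6 and 7).

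The share of p300 peaks at H3K4me3 also varied between scaffolds. Among the 39 scaffolds with 10 or more p300 peaks it was highest on Scaffold67 (10 of 18, 55.6%), Scaffold44 (10 of 19, 52.6%) and Scaffold22 (35 of 75, 46.7%). It was lowest on Scaffold81 (1 of 16, 6.25%), Scaffold30 (1 of 15, 6.67%) and Scaffold60 (2 of 14, 14.3%). Each is an extreme of the 39, resting on few peaks except on Scaffold22, and was not tested against counting error. Scaffold160 alone had 5 or more series-wide p300 peaks and no H3K4me3, with 5 p300 peaks (7 and 9 in the replicates) and 4 and 0 H3K4me3 peaks in the replicates. No scaffold had 5 or more series-wide H3K4me3 peaks and 0 series-wide p300 peaks. In replicate 1 alone Scaffold101 had 5 H3K4me3 peaks, with 0 in replicate 2 and 0 p300 peaks in every list.

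Among scaffolds with 5 or more series-wide peaks of a target, Scaffold304 had the largest covered share. Series-wide peaks covered 49.5% of its span of 13590 bp, with 11 p300 peaks (11 and 12 in the replicates) that had a median width of 517 bp, against 217 bp over all scaffolds. Their centres were a median of 974.5 bp apart, and 1083.25 and 966.5 bp in the replicates. A single series-wide H3K4me3 peak (4 and 1) lay near one end, and 2 of the 11 p300 peaks overlapped it. In replicate 1 each of the 4 H3K4me3 peaks overlapped a p300 peak of that replicate, the last of them at 7818 to 8260. Scaffold307 had 23.2% of its 23113 bp covered by peaks of both targets, mostly by its 1 H3K4me3 peak of 4874 bp. Of its 6 p300 peaks (7 and 6), 4 overlapped that peak. Scaffold169 had 20.1% of 51867 bp covered, by 4 H3K4me3 (6 and 4) and 8 p300 peaks (8 and 12).

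**Figure D5:**
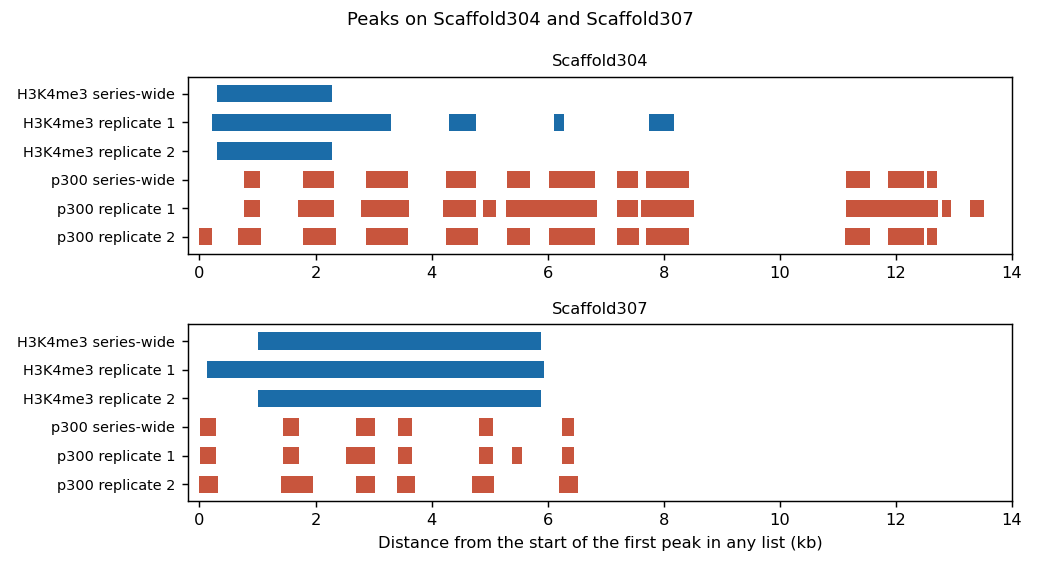
Peaks on Scaffold304 (top) and Scaffold307 (bottom) in the 6 lists, by distance in kb from the start of the first peak in any list; each bar is 1 peak, blue for H3K4me3 and red for p300. On Scaffold304 the 11 series-wide p300 intervals lie in 8 of the 11 replicate 1 peaks and in 11 of the 12 replicate 2 peaks, and on Scaffold307 a single H3K4me3 peak spans 4 of the 6 p300 peaks.

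Between the p300 replicates, the largest excess of replicate 2 in number of peaks was on Scaffold21 (94 and 143), Scaffold25 (55 and 101) and Scaffold19 (75 and 120). The whole lists held 35127 and 58614 peaks, and this ranking was not scaled to list size, so it favours scaffolds with many peaks. The largest excess of replicate 1 was on Scaffold72 (39 and 31), Scaffold120 (6 and 0) and Scaffold496 (8 and 2).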

How the data were processed

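The 11 samples were grouped by the target and replicate number in their titles, and 4 were used, with 7 not analysed here. The authors deposited 6 peak lists that hold positions without scores. The submitters' processing notes name MACS2 (version 2.1.0.20140616), bedtools and BWA (version 0.7.10-r789). Settings, control, threshold and genome build: not given in the sources used here. Read depth is unknown. All 2757 H3K4me3 and 1993 p300 scaffold intervals of the series-wide lists equalled an intersection of peaks of both replicates, and 2 and 19 of them were under 50 bp.

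An overlap was 1 bp or more. Counts used scipy 1.17.1 and numpy 2.4.6 under Python 3.11.15, and figures matplotlib 3.10.9. The overlap calls were checked against a base-by-base count, with a simulated p300-like list on the real H3K4me3 intervals, and 0 of 28574 intervals differed. That check covered overlap calls alone. Shares carry Wilson and differences Newcombe 95% intervals. Scaffold and chromosome values of a replicate come from the same libraries, so the replicate number pairs them, and a sign flip over the 2 pairs was the alternative to the exact permutation test. Named scaffolds are the 10 with most peaks, the 5 widest peaks and 3 densest 100-kb windows per target, and the extremes of overlap, replicate excess and covered span; those with extreme density, Scaffold27 and Scaffold42 were named after their values were seen. The members, classes and rules were chosen with earlier results of these data known.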

Additional observations from a re-analysis of the deposited data

Results flagged for a closer look

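Scaffold22 and Scaffold29 had fewer p300 than H3K4me3 peaks in both replicates, while the chromosomes together had more p300 than H3K4me3 peaks in both. On Scaffold22 the log2 ratio of p300 to H3K4me3 peaks was -0.71 in replicate 1 and -0.21 in replicate 2, with a mean of -0.46. On Scaffold29 it was -0.92 and -0.34, with a mean of -0.63. On the chromosomes it was 0.12 and 1.18. Scaffold27 had -1.71 and -0.26, with a mean of -0.99, and Scaffold42 had -0.53 and -0.45, with a mean of -0.49. These 4 were the scaffolds with fewer p300 than H3K4me3 peaks in both replicates among the 43 with a span of 1 Mb or more, and 26 of the 163 low-numbered scaffolds had this order. The 4 are set out here for having this order in both replicates, so the agreement of the replicates comes from that choice. The chromosomes were taken as a total per replicate and not as stretches of the same length, and the difference was not tested.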

How the results depend on the processing

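Of 74 values recomputed under other settings, 45 stayed within the spread between replicates, 26 moved beyond it and 3 changed sign. That spread is the SD of 2 replicate values, so the tally is no test of stability, and single-replicate settings reuse those values. It was 0.319 points for the H3K4me3 share on scaffolds and 3.02 points for the p300 share. The p300 share of 7.97% thus counted as within it at 5.25% with spans of 100 kb or more and at 10.8% without replicate 2. Of 8 recurrence values, 4 stayed within their Wilson counting interval and 4 moved out of it. The changes of sign concerned the difference in p300 peaks at H3K4me3, which was -1.75 points and became 2.37 points with spans of 100 kb or more and 1.49 points without scaffolds numbered above 1000, an alternative chosen after seeing the data; with 1 replicate left out it ran from -6.17 (without replicate 2) to 2.91 points (without replicate 1). The same difference was -7.30 points in the widest 50% of each list. Without peaks starting at base 1, also an alternative chosen after seeing the data, it was -4.45 points. With the replicate block it was -1.63 points (exact sign flip p = 1).

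The difference in H3K4me3 peaks with p300 stayed negative in every setting run. It was -9.21 points with the replicate block (exact sign flip p = 0.5, the smallest 2 pairs allow), -0.73 points in the widest 50% of each list, -2.51 points with spans of 100 kb or more, -2.63 points without high-numbered scaffolds, and -11.7 to -6.70 points with 1 replicate left out. The share itself was 19.97%, 22.7% and 22.6% in the first 3 of those subsets, 19.7% without peaks starting at base 1 (also chosen after seeing the data), and 22.5 to 25.6% in single replicates. In the widest 50%, 18.7% of p300 peaks overlapped H3K4me3.

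The H3K4me3 share on scaffolds was 6.34% in the widest 50%, 6.21% with spans of 100 kb or more, 8.61% without peaks starting at base 1, 6.57% without high-numbered scaffolds and 11.4 to 11.9% in single replicates. Its median width was 1582, 1025.5, 806 and 1021 bp in the same order, 628.5 bp with peaks under 1 kb apart joined, and 556 to 562 bp in single replicates. For p300 the width was 293.5 bp in the widest 50% and 209 to 255 bp in single replicates.

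In a further setting, equal numbers of the widest peaks were taken from the whole list of each replicate. Recurrence on scaffolds was then 76.8% and 67.7% for H3K4me3 replicates 1 and 2, and 38.4% and 64.4% for p300 replicates 1 and 2. The order of the replicates thus turned round for both targets. The numbers were made equal over whole lists and not on scaffolds. These shares therefore still depend on how many scaffold peaks each replicate kept. Unknown read depth and spans known only as lower bounds limit every count per list and per Mb.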
